A study of Mus musculus with 15 samples.

Results

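The comparison set 2 control libraries of mouse embryonic stem cells (ESCs) against 5 control libraries of 2-cell embryos, which are 7 of the 15 libraries of the series. Every library labelled as control was taken, and none was chosen by its values. The series asked what Zscan4, a zinc finger gene family of 2-cell embryos, does when it is overexpressed in ESCs or lowered by RNAi in embryos, and the 8 treated libraries were not used for the values given here. The stem cells were J1, a male line from the 129 strain, of wild-type genotype, grown without feeder cells and labelled with the passage PN+8. The embryos were wild type at the 2-cell stage, with no strain, sex, pooling or hours after fertilisation in the labels, which repeat the J1 growth protocol for them. Whether replicates came from different cultures or embryo pools is not stated, and every p-value therefore reflects the spread among these libraries alone, part of which may be technical.

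In the mouse, the first cleavage is run largely by RNA and protein that the oocyte stored. The embryo's own genome becomes active in 2 bursts, of which the larger falls at the 2-cell stage, and a set of genes and retroviral elements is then transcribed that is silent almost everywhere else. Maternal transcripts are cleared over the same hours. Stem cells in culture derive from the inner cell mass of the blastocyst, several divisions later. They divide fast, depend on glycolysis and hold the pluripotency network of Oct4 (Pou5f1), Sox2 and Nanog, and a small share of the cells of such a culture passes through a state that resembles the 2-cell embryo and transcribes Zscan4.

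The tables of the ESCs and of the embryos were scaled separately by the authors, so each gene was given its percentile rank within each library, from 0 for the lowest to 100 for the highest read count. Ranks were taken over 17705 genes that were found by symbol in both tables and reached 1 RPM in both ESC controls or in at least 3 of the 5 embryo controls. A gene without a read ranked between 6.44 and 10.5, depending on the library. Differences in rank are given as ESC minus embryo, in points. A gene was called where limma gave an adjusted p under 0.05, and a called difference of 25 points or more is termed large. RPM is a gene's reads per 1000000 reads on matched genes in that library, and a fold is the ratio of the mean RPM of the groups. Neither ranks nor RPM were divided by gene length, so they compare 1 gene between groups and do not order genes.

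The ESC libraries held 25817781 and 26156142 reads on genes and the embryo libraries 695524 to 1329117. Cell source, table, depth, gene annotation and library preparation run together here: the effect of the cells and the effect of these other differences cannot be told apart. In bulk samples, fewer cells of a type and less RNA per cell cannot be told apart either. The ESC pair had a Spearman correlation of ranks across genes of 0.996, the 10 pairs of embryo libraries 0.825 to 0.878, and the 10 pairs of an ESC with an embryo library 0.366 to 0.412. The median standard deviation (SD) of a gene's rank was 0.525 points between the ESC libraries and 8.91 between the embryo libraries. Of the embryo libraries, control 5 stood apart in several measures: thinned to the same 670197 reads, it held a read on 16869 genes, the other embryo controls on 14930 to 15286 and the ESC controls on 13809 and 13845. The columns of the embryo controls are numbered from 1 to 5 while their labels are numbered from 3 to 7, so the numbers used here only name the libraries.

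The markers of the labelled cells were present. Of 10 stem cell markers, the ESC controls had Pou5f1, Sox2, Nanog, Esrrb, Tdgf1, Dppa5a and Zfp42 at ranks above 96 in both libraries, and Klf4, Utf1 and Lin28a at lower ranks. Of the 2-cell markers, Zscan4d, Zfp352 and Obox6 were above rank 95 in all 5 embryo libraries. The markers Tdpoz1, Tcstv3 and Usp17lc passed the filter, and their ranks are not given here. Of these, Tdpoz1 and Tcstv3 had large differences toward embryos. Duxf3, the mouse Dux gene, did not pass the filter on low values in either source. Other cells were checked by summed levels. In the embryos, the summed level of 20 cumulus and granulosa genes was 43.8 to 112 RPM and 10 of them had no read, that of 12 matched fibroblast genes was 2.98 to 30.1 with 6 at 0, that of 6 matched blood genes was 42.2 to 115 with 2 at 0, and that of 14 sperm genes was 129 to 306 with 4 at 0. In the ESCs, which were labelled as feeder-free, the fibroblast genes summed to 90.7 and 90.5 with 3 at 0, the cumulus genes to 88.9 and 91.4 with 1 at 0, the blood genes to 4.26 and 5.09 with 2 at 0 and the sperm genes to 388 and 394 with 6 at 0, above every embryo library. The part of these cells in any result was not tested.

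Among all 17705 genes, 5090 (28.7%) were called higher in ESCs and 4742 (26.8%) higher in embryos. The difference was large for 3331 genes (18.8%) toward ESCs and for 3112 (17.6%) toward embryos, so a gene list needs to be read against these shares. Without ESC control 1 or 2, 5777 and 5750 genes were called in all, in place of 9832. Such a fit has only 1 ESC library, so a call lost there does not show that the difference itself changed. With all 7 libraries, the median difference over all genes was 0.565 points. For 12362 genes (69.8%) every library of 1 source lay above all those of the other. Few genes stood at the top in both sources: 176 genes had a mean rank above 99 in ESCs and 142 in embryos, and 18 had it in both. With no read in the other source, 129 genes reached a mean of 100 RPM or more in embryos and 13 did so in ESCs.

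**Figure D1:**
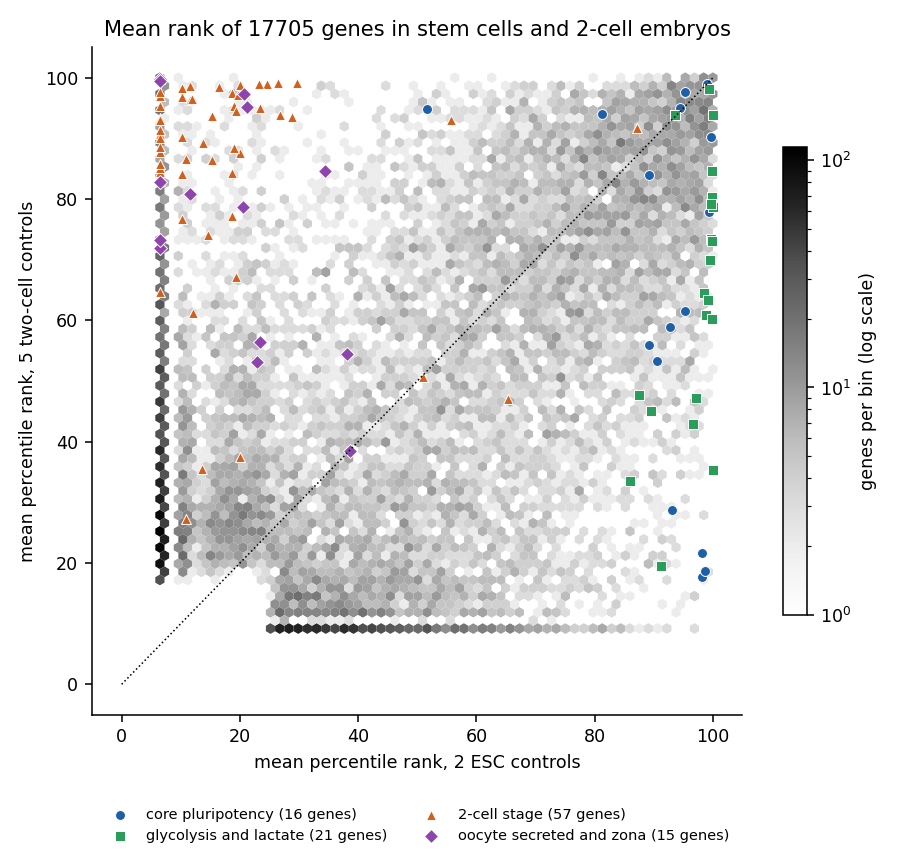
Mean percentile rank of each of 17705 genes in the 2 ESC controls (horizontal axis) and in the 5 embryo controls (vertical axis), with shading for the number of genes per bin on a log scale, a dotted line of equal rank and coloured points for 4 gene lists. The 2-cell and oocyte genes lie at the upper left and the glycolysis genes at the right edge, and the dense bands at the left and lower edges are genes without a read in 1 of the sources.

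The 12 protein-coding genes with the largest differences toward embryos had no read in either ESC library. Omt2b, an oocyte-specific gene, stood at 6726, 6192, 8902, 5313 and 6024 RPM in the 5 embryo controls. Oog3, an oocyte gene of the leucine-rich repeat PRAME family, stood at 7804, 6880.0, 7095, 5548 and 3516 and was at least 105935-fold higher than in ESCs, taking 3 reads over the group as the floor. Both stem cell libraries were at 0 and every embryo library was far above them (Oog3 difference -93.5 points, SE 2.23, adjusted p = 1.82e-07). Others of the 12 were the Tcl1 relatives Tcl1b1, Tcl1b2 and Tcl1b3, the homeobox gene Obox5, the deadenylation adaptor Btg4, the oocyte growth factor Bmp15, the secreted oocyte proteins Oosp1 and Oosp3, Khdc1b and Bmp5. Their mean levels in embryos ran from 797 RPM for Bmp5 to 2767 for Tcl1b1.

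Oog2 and Oog3 are neighbouring copies on chromosome 4 in a run of 11 consecutive tested genes with large differences toward embryos. The 60 bases before their start sites are shown because the copies share them closely. The sequences are from RefSeq (GRCm38.p6), 5′ to 3′ on the gene's strand, with the motif TATAAA in capitals; Oog3 lies at chr4:144162652-144162711 on the minus strand and Oog2 at chr4:144190657-144190716 on the plus strand. The windows of 2 genes that were high in ESCs, Gapdh at chr6:125165774-125165833 and Asns at chr6:7693210-7693269, both on the minus strand, are shown beside them.
Oog3: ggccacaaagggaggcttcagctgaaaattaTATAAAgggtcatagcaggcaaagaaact
Oog2: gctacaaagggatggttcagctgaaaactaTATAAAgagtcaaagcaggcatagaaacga
Gapdh: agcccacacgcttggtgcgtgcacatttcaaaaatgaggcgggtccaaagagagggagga
Asns: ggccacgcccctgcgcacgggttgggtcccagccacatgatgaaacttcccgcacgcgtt
Shifted by 1 base, the Oog windows agreed at 51 of 59 positions. The motif began 29 bases before the Oog3 start and 30 before the Oog2 start. It was absent from the windows of Gapdh and Asns. It was also absent from the 60-base windows of Btg4, Omt2b and Tcl1b1, which were among the leading genes toward embryos. On the gene's strand, TATAAA stood between 45 and 16 bases before the start in 702 of the 32851 promoters of the table, or 2.14%. Only 66.9% of the tested genes had a promoter in that table, under the 80% needed, so a comparison of promoter composition between the gene sets was void and is not given.

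Toward ESCs, the largest differences were those of Pald1, a vascular phosphatase-like gene, and Asns, asparagine synthetase. Pald1 stood at 340.2 and 344 RPM in the ESC controls and had no read in any of the 5 embryo controls. Asns stood at 274 and 269 and likewise had no embryo read, which makes it at least 420.2-fold higher in ESCs (difference 87.5 points, SE 4.74, adjusted p = 5.75e-06). The amino acid transporter Slc38a2, the collagen lysyl hydroxylase Plod2 and Ptgfrn also had no embryo read, at 153, 142 and 129 RPM in ESCs. Another 7 genes of the leading 12, among them Fabp3, a fatty acid binding protein, Stmn2, a tubulin-binding protein, Anp32a, Slc38a10 and the basement membrane proteoglycan Hspg2, had reads in 1 or 2 of the embryo libraries only. At the embryo depth, a gene without a read may still be present below about 3 reads over the 5 libraries.

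Genes of the core pluripotency network were mostly higher in ESCs: of 16 tested, 10 were called higher in ESCs and 3 higher in embryos, with a median difference of 27.4 points. Nanog stood at 433 and 421 RPM in the ESC controls and at 0, 1.56, 4.48, 0 and 0 in embryo controls 1 to 5. Sox2 stood at 427 and 427 in the ESCs and at 0, 0.782, 1.49, 0 and 8.62 in the embryos. Tdgf1, a co-receptor for Nodal, stood at 547 and 569 and at 3.65, 0, 0, 0 and 3.69. These 3 genes were near or at 0 in every embryo library and the groups were far apart (354-fold, 196-fold and 380.2-fold, adjusted p = 2.53e-04, 4.30e-04 and 2.20e-04). Pou5f1 differed less: it stood at 892 and 892 in ESCs and at 32.9, 23.4, 43.3, 52.97 and 251 in the embryos, where control 5 was the highest. Its difference of 21.5 points (adjusted p = 0.0368) was not called when ESC control 1 or 2 was left out (adjusted p = 0.135 and 0.135), nor without any 1 of embryo controls 1 to 4 (up to 0.0688). With 1 embryo library left out at a time, the list gave 8 to 10 higher in ESCs and 1 to 3 higher in embryos. Without ESC control 1 or 2, its median difference was 27.5 and 27.3 points.

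The core members called higher in embryos were Dppa2, Dppa4 and Rif1. Dppa2, a SAP-domain chromatin protein that is needed for 2-cell transcription in ESCs, stood at 12 and 12.8 RPM in ESCs and 255, 310.3, 228, 188 and 122 in embryos. It was 17.8-fold higher in embryos, all 5 of which lay above both ESC libraries (difference -43.1 points, adjusted p = 2.49e-06). Its partner Dppa4 was 4.05-fold higher in embryos (adjusted p = 0.0343), but embryo control 5, at 65.2 RPM, lay beside the ESC values of 63.3 and 64.99, and the call was lost without either ESC control or without any 1 of embryo controls 1 to 4 (up to 0.0675). Rif1, a regulator of replication timing, was 1.69-fold higher in embryos (adjusted p = 0.0276), a call lost without ESC control 1 or 2 (0.191 and 0.146) and in 2 of the 5 fits without an embryo control (up to 0.0545). Outside this list, the oocyte gene Dppa3 (Stella), which protects the maternal genome from demethylation in the zygote, stood at 23.1 and 24.5 in ESCs and 4985, 4655, 3739, 2803 and 1836 in embryos. It was 152-fold higher in embryos, with the lowest embryo library far above the ESCs (adjusted p = 2.00e-07).

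Of 18 naive pluripotency genes, 9 were called higher in ESCs and 1, the F-box gene Fbxo15, higher in embryos (median difference 18.96 points; with 1 library left out, 4 to 10 higher in ESCs and 1 to 2 higher in embryos). Esrrb, a nuclear receptor of the naive state, stood at 658 and 672 RPM in ESCs and 5.48, 13.3, 22.4, 10.1 and 18.5 in embryos. Nr0b1 had no embryo read at 21.1 in ESCs, and Tfcp2l1 was 20.1-fold higher in ESCs. Klf4, a Kruppel-like factor, was not called: its ESC ranks of 81.1 and 81.7 fell within the embryo range of 60.5 to 82.2 (adjusted p = 0.204). Zfp42 (Rex1) just missed the threshold at 6.97-fold (adjusted p = 0.05002), with embryo control 1 at rank 40.9 and the others between 69.6 and 81.3. Dppa5a, an RNA-binding protein, was in the top ranks of both sources, at 98.9 and 98.9 in ESCs and 97.5 to 99.5 in embryos, a difference of 0.0302 points. Among 15 tested primed epiblast genes, 7 were called higher in ESCs, with Lefty1, Lefty2 and Zic5 lacking an embryo read, and 1, the Wnt effector Lef1, higher in embryos (12.4-fold; adjusted p = 0.0643 without ESC control 1).

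**Figure D2:**
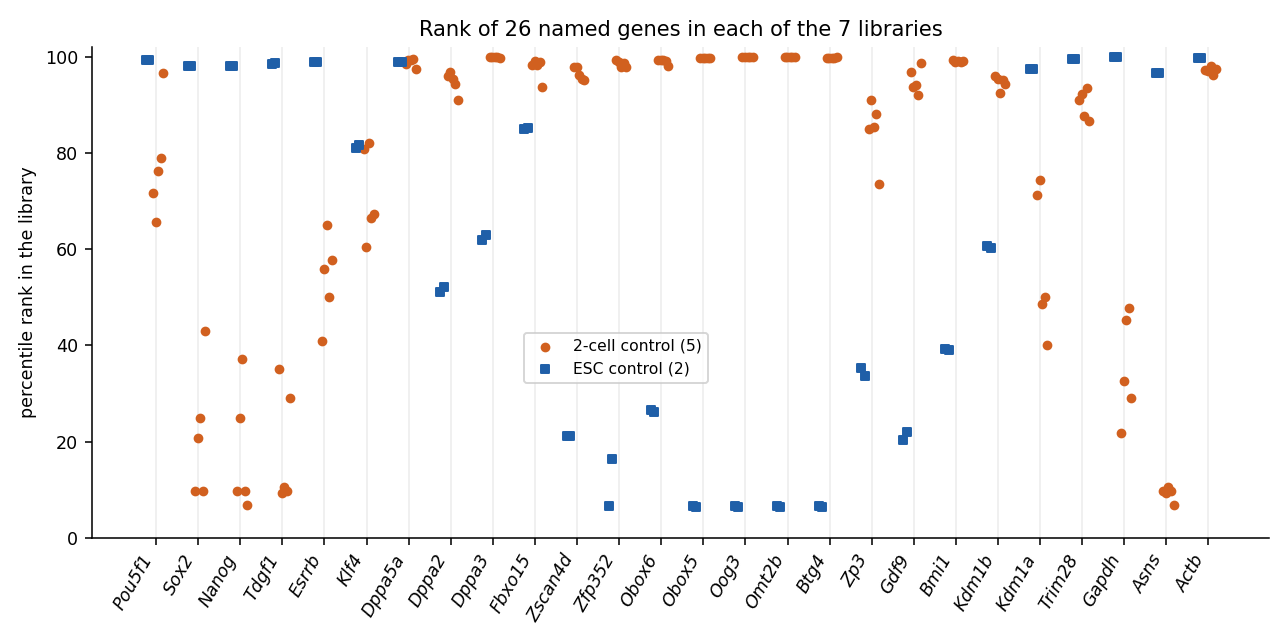
Percentile rank of 26 genes (horizontal axis) in each of the 2 ESC controls (blue squares) and 5 embryo controls (orange circles). Nanog, Sox2, Tdgf1, Gapdh and Asns are high only in the squares, Zscan4d, Obox6, Oog3 and Bmi1 only in the circles, and Dppa5a and Klf4 overlap.

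Genes of the 2-cell stage were higher in embryos. Of 57 tested genes, 51 were called higher in embryos, all of them by 25 points or more, and none was called higher in ESCs, with a median difference of -75.8 points (0 to 1 higher in ESCs and 51 to 52 higher in embryos with 1 library left out). Summed over the list, the embryos had 10745 to 16269.7 RPM and the ESC controls 158 and 167. Obox3 and Obox5, homeobox genes of the oocyte and early embryo, had no ESC read. Zfp352, a zinc finger gene of the 2-cell stage, stood at 0 and 0.116 RPM in ESCs and 753, 603, 407, 502 and 352 in embryos. Obox6 stood at 1.29 and 1.23 and 836, 788, 736, 608 and 382, 531-fold higher in embryos (difference -72.6 points, adjusted p = 1.82e-07). No embryo library approached an ESC library for either gene.

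The Zscan4 cluster on chromosome 7 was measured as the sum of its 9 copies, since reads cannot be split reliably among near-identical genes. The sum was 6.25 and 8.72 RPM in the ESC controls and 987, 1128, 730, 728 and 434 in embryo controls 1 to 5, a ratio of 107 between the means. As 1 feature it ranked at 42.8 and 46.7 in ESCs and at 98.5 to 99.6 in embryos (exact permutation test over 21 assignments, two-sided p = 0.0476, the smallest this design can give). The groups did not overlap, and embryo control 5 was the lowest embryo library. Of the single copies, 8 of 9 were called higher in embryos. Zscan4d stood at 0.430 and 0.424 RPM in ESCs and 391, 390.0, 266, 213 and 197 in embryos.

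Oocyte transcripts were also mostly higher in embryos. Of 15 genes of the subcortical maternal complex and its NLRP relatives, an assembly under the membrane of oocyte and early embryo, 14 were called higher in embryos and none in ESCs (median -60.8 points). Nlrp9a and Nlrp9c had no ESC read, and Nlrp5 (Mater) had 1 read in both ESC libraries together while it stood at 61.2, 71.1, 29.8, 41.6 and 161 RPM in embryos. Of 15 zona pellucida and secreted oocyte genes, 12 were called higher in embryos (median -66.8 points). The zona protein gene Zp3 stood at 3.17 and 2.66 in ESCs and 78.5, 129.7, 79.1, 101 and 40.6 in embryos, and the oocyte growth factor Gdf9 at 0.352 and 0.540 and 294, 184, 184, 143 and 460.3. Embryo control 5 was the lowest embryo library for Zp3 and the highest for Gdf9.

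A wider list of 44 tested oocyte genes had 32 called higher in embryos and 5 higher in ESCs (median -68.5 points). Outside this list, Zbed3, a zinc finger gene of the maternal complex counted above, stood at 17.8 and 16.8 RPM in ESCs. In embryos it stood at 6711, 6151, 3891, 5166 and 11167, 383-fold higher (adjusted p = 1.82e-07). Of the 5 higher in ESCs, Dnmt1 (10.1-fold), the maintenance DNA methyltransferase, Smarca4 (8.91-fold), an ATPase that remodels nucleosomes, the spindle checkpoint kinase Bub1b (12.2-fold) and Sohlh2 (33.5-fold), a factor of early oocyte growth, were the 4 with the largest differences. The call for Bub1b was lost without ESC control 1 or 2 (adjusted p = 0.0592 and 0.0578).

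Genes that store or clear maternal mRNA were split, with 13 of 24 called higher in embryos and 5 higher in ESCs (median -10.6 points; 1 to 5 higher in ESCs and 9 to 13 higher in embryos with 1 library left out). Btg4, which recruits the deadenylase to maternal mRNA, had no ESC read and stood at 2974, 2139, 1914, 1285 and 3835 RPM in embryos. Eif4e1b, the oocyte form of the cap-binding protein, also had no ESC read, at 67.5, 48.5, 35.8, 37.8 and 114. Zar1, an RNA-binding protein of the oocyte, had 1 ESC read and 6.39, 4.69, 34.3, 37.8 and 38.2 in embryos, and its call was lost without ESC control 1 or 2 (adjusted p = 0.0511 and 0.0776). Higher in ESCs were Patl2 (11.4-fold), the decay factor Zfp36l2 (5-fold), the helicase Ddx6 (2.94-fold) and Lsm14b (2.27-fold), of which the last 3 lost the call without either ESC control (adjusted p = 0.120, 0.132 and 0.181 without control 1). Ddx6 also lost it without embryo control 3 or 4 and Lsm14b without embryo control 1, 2 or 3 (adjusted p up to 0.0577 and 0.0797).

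**Figure D3:**
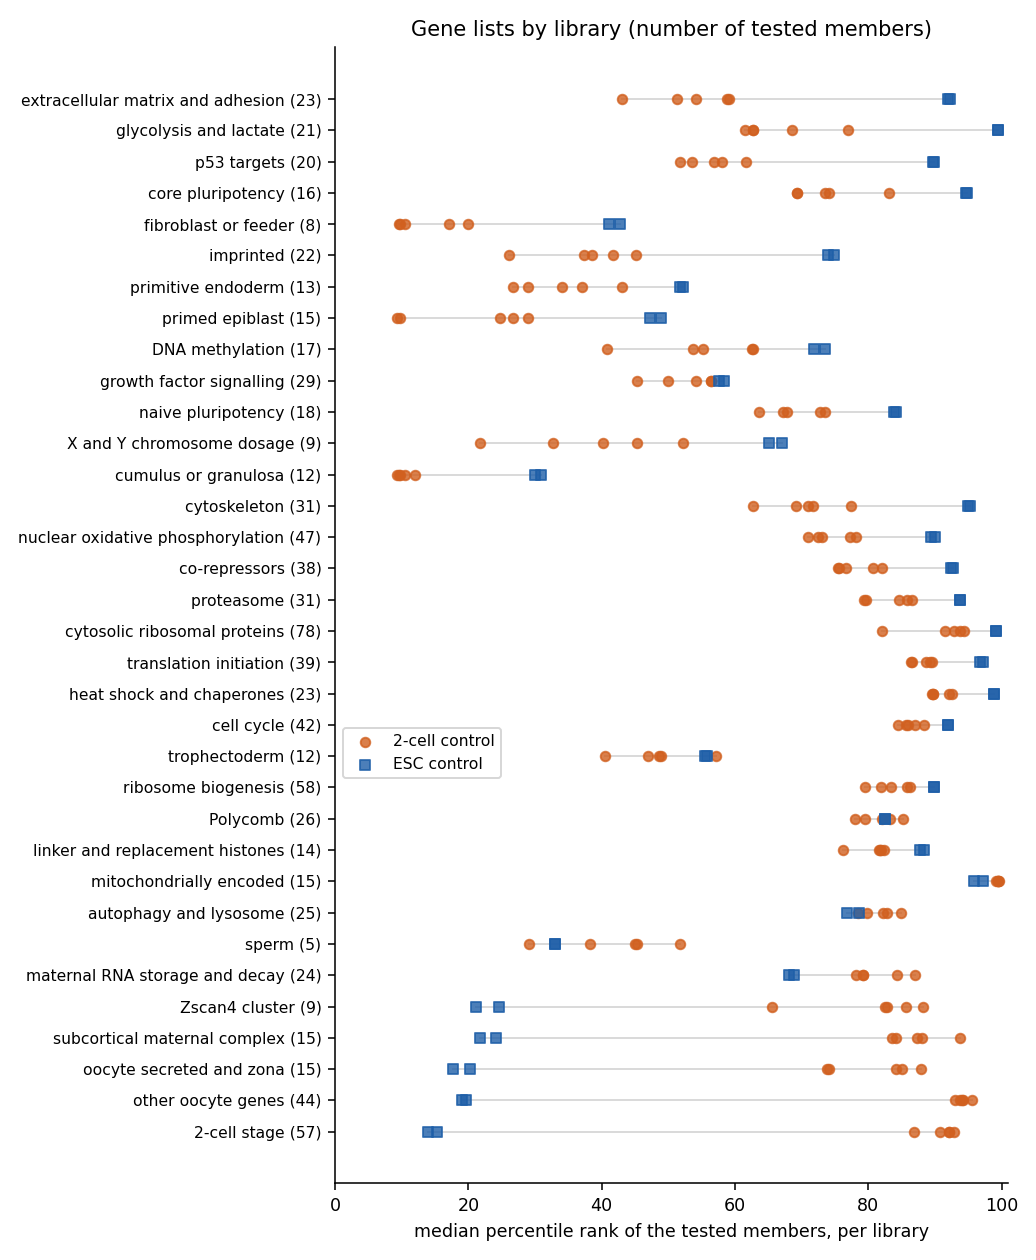
Median percentile rank of the tested members of each gene list (vertical axis, number of members in brackets) in each of the 2 ESC controls (squares) and 5 embryo controls (circles). The 2-cell, oocyte and Zscan4 lists at the bottom have medians under 25 in ESCs and above 65 in embryos, and the extracellular matrix, glycolysis and p53 lists at the top have medians near 90 or above in ESCs and under 78 in embryos.

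The series concerns co-repressor complexes, and their genes were mostly higher in ESCs: of 38 genes of the LSD1, HDAC, NuRD and KAP1 complexes, 20 were called higher in ESCs and 3 higher in embryos (median 13.7 points; 9 to 21 higher in ESCs and 2 to 5 higher in embryos with 1 library left out). Trim28 (KAP1), the scaffold that silences retroviral elements, stood at 1224 and 1208 RPM in ESCs and 131, 148, 95.5, 165 and 87.4 in embryos. It was 9.69-fold higher in ESCs without overlap, although it ranked above 86 in every embryo library (difference 9.35 points, adjusted p = 0.00520). Kdm1a (LSD1), a histone demethylase, stood at 348 and 352 in ESCs and 31.9, 39.1, 8.95, 10.1 and 7.38 in embryos (17.96-fold, adjusted p = 0.00856), a call lost without ESC control 1 or 2 (adjusted p = 0.0589 and 0.0589). Its relative Kdm1b (LSD2) went the other way, at 21.7 and 21.02 in ESCs and 249, 232, 148, 209 and 175 in embryos (9.49-fold, adjusted p = 1.75e-06). Hdac1 was not called, with ESC ranks of 92.8 and 92.8 inside the embryo range of 91.1 to 96.9. The histone deacetylase Hdac3, the NuRD family ATPase Chd3 and the H3K9 methyltransferase Ehmt2 (G9a) were 19.1, 21.3 and 23.99-fold higher in ESCs.

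Polycomb genes were called in both directions, as were 28.7% of all tested genes toward ESCs and 26.8% toward embryos. Of 26 tested, 10 were called higher in ESCs and 7 higher in embryos (median 2.81 points; 6 to 11 higher in ESCs and 5 to 8 higher in embryos with 1 library left out). Bmi1 (Pcgf4), a ring finger subunit of Polycomb repressive complex 1 (PRC1), stood at 4.49 and 4.44 RPM in ESCs and 787, 566, 652, 542 and 618 in embryos, 142-fold higher (adjusted p = 1.82e-07). Its paralogs Pcgf1 and Pcgf5 were 19 and 6.44-fold higher in embryos (adjusted p = 1.60e-06 and 2.10e-04). The paralog Pcgf2 (Mel18) was the reverse, at 87.9 and 85.5 in ESCs and 11.9, 0, 0, 1.26 and 3.69 in embryos (25.8-fold, adjusted p = 0.00412). The chromobox subunits Cbx6 and Cbx7 were 77.98 and 16.03-fold higher in ESCs. Among factors that bind Polycomb repressive complex 2, Phf1 was 33.1-fold higher in embryos, with control 5 the highest at 826 RPM, and Phf19 had 1 embryo read against 16.8 RPM in ESCs.

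Of 17 genes of DNA methylation and demethylation, 8 were called higher in ESCs and 3 higher in embryos (median 20.8 points; 4 to 9 higher in ESCs and 2 to 4 higher in embryos with 1 library left out). Tet3, the dioxygenase that oxidises methylcytosine in the zygote, stood at 11.3 and 14.4 RPM in ESCs and 181, 141, 112, 150.1 and 348 in embryos (14.5-fold, adjusted p = 8.91e-06). Tet1 was the reverse, at 158 and 182 and 28.3, 14.8, 11.9, 22.7 and 32 (7.75-fold, adjusted p = 0.00119). Tdg, the glycosylase that removes the oxidised bases, had no embryo read at 88.2 and 84.8 in the ESCs. Zfp57, which keeps imprints, was 2.32-fold higher in embryos (adjusted p = 0.00270). Dnmt3b, a de novo methyltransferase, was not called (adjusted p = 0.0759). Among 14 linker and replacement histone genes, 4 were called higher in ESCs and 2 in embryos (2 to 4 higher in ESCs and 1 to 4 higher in embryos with 1 library left out, and 3 against 4 without embryo control 5). Among all tested genes, 28.7% were called higher in ESCs and 26.8% higher in embryos, so nothing is read from the histone counts. The oocyte linker histone H1foo stood at 0.195 and 0.193 in ESCs and 104, 61.7, 64.2, 149 and 126 in embryos, and H2afy (macroH2A1) was 53.6-fold higher in ESCs (adjusted p = 6.37e-04).

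Several of these contrasts lie between members of 1 family, so 31 pairs of an early-embryo or maternal gene and its relative were written down and 27 had both genes tested. The difference between the ranks of the 2 genes was taken in each library after dividing reads by exonic length, and no test was run on pairs. In 21 pairs it did not overlap between the sources, and 69.8% of all single genes did not overlap either, so nothing is read from that count. In 9 pairs the relative ranked higher in both ESC libraries and the first gene ranked higher in all 5 embryo libraries. The 8 pairs that moved most by read rank were Btg4 and Btg1, Wee2 and Wee1, Kdm1b and Kdm1a, Tet3 and Tet1, H1foo and H1f0, Npm2 and Npm1, Eif4e1b and Eif4e, and Elobl and Elob. On this scale Wee2, the oocyte kinase that holds CDK1 inactive, ranked -71.2 and -69.9 points relative to Wee1 in the ESC controls and 29.6, 28.8, 29.8, 26.6 and 35.4 in the embryos. Tet3 ranked -42.6 and -42.6 points relative to Tet1 in ESCs and 31.6, 36.2, 34.3, 32.2 and 44.2 in embryos. Both pairs thus had 1 order in the ESC libraries and the other order in all 5 embryo libraries. Npm2, a histone chaperone of the oocyte, lay -71.6 and -70.6 points from Npm1 in ESCs and -2.64, -3.06, -4.49, -2.92 and 1.12 in embryos, where only control 5 put Npm2 above Npm1. Eif4e1b stayed below Eif4e in all 7 libraries, at -86.4 and -86.5 points in ESCs and -11.1, -15.6, -19.4, -18.7 and -5.19 in embryos.

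The relatives were tested singly. Btg1 was 4.26-fold higher in ESCs (adjusted p = 0.00304, and 0.0517 without ESC control 2) and Wee1 2.45-fold (adjusted p = 0.00403, lost without ESC control 1 or 2 at 0.0659 and 0.0662). H1f0 and Npm1 were not called (adjusted p = 0.781 and 0.415). Eif4e was itself 5.81-fold higher in embryos (adjusted p = 0.00110) and so was Elob (3.28-fold, adjusted p = 0.0371, lost without either ESC control and without any 1 of embryo controls 1 to 4, up to 0.0719).

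**Figure D4:**
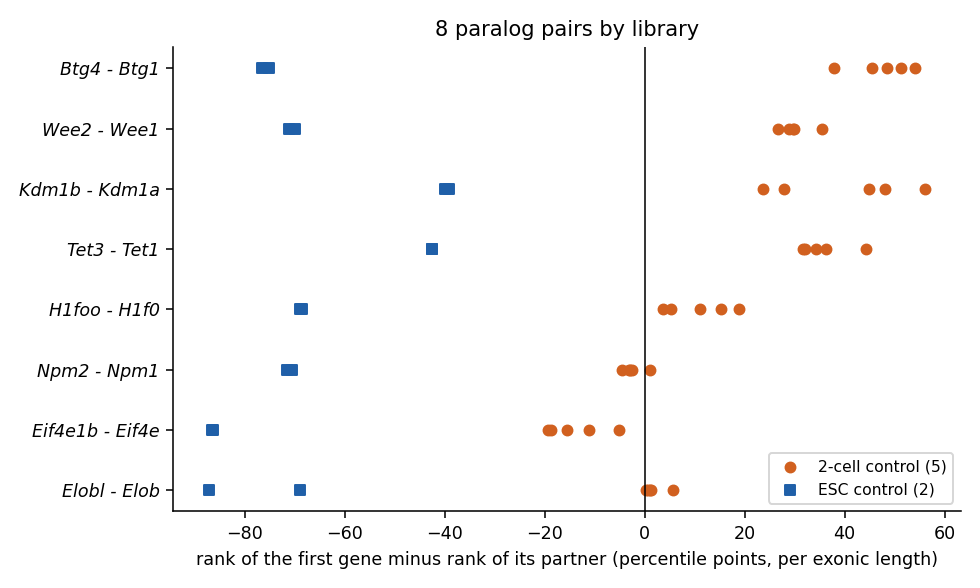
Rank of the first gene minus rank of its relative, per exonic length and in percentile points (horizontal axis), for 8 pairs in each ESC control (squares) and embryo control (circles), with a line at equal rank. The squares lie left of the line in all 8 pairs, and the circles lie right of it in 6 pairs.

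Glycolysis genes were higher in ESCs. Of 21 tested genes of glycolysis and lactate handling, 19 were called higher in ESCs and none higher in embryos, 14 of them by 25 points or more (median 33.9 points; 11 to 20 higher in ESCs and 0 higher in embryos with 1 library left out). Their summed level was 33377 and 33009 RPM in the ESCs and 1116 to 2049 in the embryos. Gapdh, the dehydrogenase at the centre of the pathway, stood at 6954 and 6799 in the ESC controls and at 0.913, 3.13, 7.46, 8.83 and 3.69 in the embryo controls. That is 1431-fold, with the highest embryo library under 9 (difference 64.7 points, SE 8.13, adjusted p = 3.69e-04). Gapdh has many processed copies in the mouse genome, and how reads that match several genes were counted is not given in the sources used here. Aldoc, an aldolase, Hk1, a hexokinase, and Pfkm, a phosphofructokinase, were 101, 25.96 and 16.95-fold higher in ESCs, of which Hk1 lost its call without ESC control 1 or 2 (adjusted p = 0.0784 and 0.0795).

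Nuclear genes of oxidative phosphorylation were also mostly higher in ESCs, with 24 of 47 called and 4 called higher in embryos (median 14.1 points; 10 to 26 higher in ESCs and 2 to 5 higher in embryos with 1 library left out). Ndufa8 of complex I and Sdhb of complex II were 21.6 and 11.4-fold higher in ESCs (adjusted p = 5.73e-04 and 0.00152). Of 15 listed genes of mitochondrial DNA, 6 were called higher in embryos by rank and none in ESCs. Of these 6, 1 difference was large. The other 9 were not called, and the median difference was -0.988 points. As normal scores, on the log2 scales, in edgeR and in DESeq2, 1 to 2 were called higher in ESCs and 10 higher in embryos. Of all 37 tested genes on mitochondrial DNA, 22 had a large difference toward embryos (median -34.7 points). Only 1 of these 22 was among the 15 listed genes, which are the protein-coding and ribosomal RNA genes. The rest were genes outside the list, so this count does not describe the listed genes. The large ribosomal RNA mt-Rnr2 stood at 189 and 189.8 RPM in ESCs and 6627, 5613, 6146, 6236 and 3624 in embryos, 29.9-fold higher (adjusted p = 1.60e-04). The cytochrome oxidase subunit mt-Co1 was in the top ranks of both sources and was not called. As a share of reads, mitochondrially encoded genes took 2.39% and 2.38% in the ESCs and 6.27%, 5.46%, 4.75%, 4.94% and 2.35% in the embryos, so embryo control 5 lay with the ESCs and the others above (exact permutation p = 0.190 over 21 assignments, two-sided). Across 5 such measures of library makeup the p-values adjusted by Benjamini and Hochberg ran from 0.0794 to 0.190.

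Cytosolic ribosomal protein genes took 7.30% and 7.21% of the reads in the ESC controls and 1.35%, 1.84%, 1.89%, 1.70% and 0.695% in the embryo controls. Every embryo library was below both ESC libraries (exact permutation p = 0.0476, two-sided, the smallest possible, and 0.0794 after adjustment). By rank, 34 of 78 genes were called higher in ESCs and 2 higher in embryos, with a median difference of 8.54 points. These genes stayed in the upper ranks of the embryos: the median rank was 99.2 in both ESCs, 91.5 to 94.4 in embryo controls 1 to 4 and 82.1 in control 5. Without control 5, 56 were called higher in ESCs, and without an ESC control 10. As normal scores, on the log2 scales, in edgeR and in DESeq2, the list gave 60 to 69 higher in ESCs and 2 higher in embryos. Rps18 stood at 1146 and 1116 RPM in ESCs and 9.13, 21.1, 14.9, 13.9 and 8.62 in embryos (83.6-fold), and Rpl29 was 94.6-fold higher in ESCs. The 2 exceptions were Rps13 (6.68-fold higher in embryos) and Fau (3.88-fold, adjusted p = 0.0614 without ESC control 2). Many of these genes have processed copies, which makes single values uncertain.

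Genes that build ribosomes had 25 of 58 called higher in ESCs and 10 higher in embryos (median 5.74 points; 11 to 26 higher in ESCs and 6 to 14 higher in embryos with 1 library left out). Npm3 and Utp20 were 21.04 and 8.62-fold higher in ESCs, while Nop16, the RNA polymerase I subunit gene Polr1e and the snoRNP genes Imp3 and Imp4 were 9.94, 5.94, 5.35 and 5.77-fold higher in embryos. Of 39 translation initiation genes, 19 were called higher in ESCs and 7 in embryos (9 to 19 higher in ESCs and 7 to 10 higher in embryos with 1 library left out). The initiation factor 3 subunit Eif3d stood at 424 and 422 RPM in ESCs and 9.13, 7.82, 10.4, 6.31 and 9.85 in embryos (48.6-fold, adjusted p = 3.55e-05). The cap-binding relative Eif4e3 was 34.5-fold higher in embryos and the embryonic poly(A)-binding protein gene Pabpc1l 92.5-fold (adjusted p = 4.98e-06 and 0.00272).

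Cell cycle genes were divided, with 16 of 42 called higher in ESCs and 13 higher in embryos (median 6.25 points; 2 to 16 higher in ESCs and 9 to 15 higher in embryos with 1 library left out, the fewest without an ESC control). Among all tested genes, 28.7% were called higher in ESCs and 26.8% higher in embryos, so calls in both directions were not particular to this list. Ccne2, cyclin E2, stood at 10.5 and 9.68 RPM in ESCs and 435, 217, 429.7, 163 and 122 in embryos (27.1-fold, adjusted p = 4.49e-06). Fbxo43 (Emi2), which holds the egg in metaphase, was 50.7-fold higher in embryos. The replicative helicase subunit Mcm3 stood at 703 and 675 in ESCs and 31.03, 33.6, 22.4, 50.5 and 51.7 in embryos (18.2-fold, adjusted p = 6.78e-04). Of the CDC25 phosphatases, Cdc25c was 4.22-fold higher in embryos and Cdc25a 11.9-fold higher in ESCs, the latter called only with both ESC controls (adjusted p = 0.00706, and 0.0607 and 0.0639 without control 1 or 2).

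Of 20 p53 target genes, 17 were called higher in ESCs and 1 higher in embryos (median 30 points; 9 to 17 higher in ESCs and 1 higher in embryos with 1 library left out). Phlda3, an Akt inhibitor, and Bbc3 (Puma), a cell death gene, had no embryo read at 97.96 and 94.4 and at 81.5 and 87.1 RPM in the ESC controls. Zmat3 and the receptor Eda2r were 138 and 104-fold higher in ESCs. The exception was Tigar, a phosphatase that lowers glycolytic flux, at 19.7 and 19.2 in ESCs and 222, 231, 204, 318 and 130.5 in embryos (11.4-fold, adjusted p = 3.35e-06). Proteasome genes had 11 of 31 called higher in ESCs and none in embryos, beside 28.7% and 26.8% of all tested genes. With 1 embryo library left out, 10 to 15 were called higher in ESCs and 0 higher in embryos. On the other scales, 16 to 18 were called higher in ESCs and 0 higher in embryos. The list was led by Psmd13 at 13.6-fold.

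Chaperone genes had 11 of 23 called higher in ESCs and 3 in embryos (7 to 14 higher in ESCs and 3 higher in embryos with 1 library left out). The chaperonin subunit Cct2, the endoplasmic reticulum chaperone Hsp90b1 and the mitochondrial chaperonin Hspd1 were 16.9, 11.2 and 10.8-fold higher in ESCs. Hsf1, the heat shock factor that the egg supplies, stood at 23.7 and 23.5 RPM in ESCs and 134, 129, 107, 217 and 303 in embryos (7.54-fold, adjusted p = 3.34e-05). Of 25 autophagy and lysosome genes, 8 were called each way, shares near those of all genes (3 to 8 higher in ESCs and 6 to 10 higher in embryos with 1 library left out). The autophagosome genes Map1lc3a, Atg5 and Gabarapl2 were 10.5, 6.65 and 9.92-fold higher in embryos, and the lysosomal membrane gene Lamp1 was 23.03-fold higher in ESCs (adjusted p = 1.67e-05, 2.36e-06, 2.36e-04 and 7.37e-04). Gabarapl1, a relative of Gabarapl2, was also called higher in ESCs, at 45.4 and 45.3 RPM, and at 0.913, 0, 0, 0 and 1.23 in embryos (adjusted p = 5.19e-05).

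Extracellular matrix and adhesion genes had a median difference of 41.6 points, with 18 of 23 called higher in ESCs and 2 higher in embryos (13 to 18 higher in ESCs and 2 to 3 higher in embryos with 1 library left out). The basement membrane genes Hspg2, Nid1, Col4a1 and Lama1 stood at 285, 142, 73.3 and 86.4 RPM in ESCs and at or under 1.25 in embryos. Claudin 6 (Cldn6) and Cd24a were 3.50 and 4.95-fold higher in embryos. Of 31 cytoskeletal genes, 17 were called higher in ESCs and 2 in embryos (6 to 19 higher in ESCs and 2 higher in embryos with 1 library left out). The actin crosslinker Flna stood at 624 and 648 in ESCs and 0, 5.47, 0, 1.26 and 7.38 in embryos (225-fold, adjusted p = 7.74e-04), and Vim (vimentin) was 46.1-fold higher in ESCs. Beta-actin, Actb, was 4.94-fold higher in ESCs at ranks above 96 in all 7 libraries, a call lost without ESC control 1 or 2 (adjusted p = 0.154 and 0.154).

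Of 29 genes of growth factor signalling, 11 were called higher in ESCs and 5 higher in embryos (6 to 11 higher in ESCs and 2 to 6 higher in embryos with 1 library left out). Spry4, an inhibitor of receptor tyrosine kinase signalling, stood at 13.8 and 14.5 RPM in ESCs and 707, 433, 555, 593 and 1446 in embryos (52.7-fold, adjusted p = 2.00e-07). Lifr, the receptor for the cytokine LIF that maintains ESCs, was 18.3-fold higher in ESCs (adjusted p = 0.00415), and Jun had no embryo read. Of 22 imprinted genes, 14 were called higher in ESCs and none in embryos (median 24.98 points; 8 to 14 higher in ESCs and 0 to 1 higher in embryos with 1 library left out). The maternally expressed RNA Meg3 stood at 393 and 360.2 in ESCs and 0.913, 3.13, 2.98, 2.52 and 7.38 in embryos, and the transporter gene Slc38a4 at 321 and 321 and 0, 0, 0, 2.52 and 2.46. Of 9 tested genes of the sex chromosomes, 3 were called higher in ESCs and 1 higher in embryos, beside 28.7% and 26.8% of all tested genes. The 3 were Ddx3y of the Y chromosome and Kdm5c and Eif2s3x of the X chromosome. Ddx3y stood at 27.4 and 29.97 in the ESCs and had no embryo read. Kdm6a, also of the X chromosome, was 2.81-fold higher in embryos, and Xist was low in both and not called.

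Genes of the first lineages were not uniform. Of 13 primitive endoderm genes, 7 were called higher in ESCs, among them Col4a1 and Lama1, and 2 higher in embryos: the transcription factor Gata4, at 2.23 and 3.97 RPM in ESCs and 26.5, 60.96, 35.8, 69.4 and 46.8 in embryos, and the adaptor Dab2 (15.4 and 9.95-fold, adjusted p = 3.29e-04 and 2.64e-04). The 12 tested trophectoderm genes stand beside 26.8% of all tested genes called higher in embryos and 28.7% higher in ESCs. Of the 12, Dppa1, Gata3 and Tfap2c were called higher in embryos and the keratin Krt8 higher in ESCs. All 4 calls were lost without ESC control 1 or 2 (adjusted p = 0.0604, 0.125, 0.124 and 0.208 without control 1), and that of Krt8 also without embryo control 1, 4 or 5 (up to 0.0721). Of the blood genes, Hba-a1 (alpha globin) stood at 0.195 and 0.694 in ESCs and 29.2, 30.5, 44.8, 63.1 and 86.2 in embryos (114-fold, adjusted p = 1.31e-04). Of the sperm genes, the protamine Prm2 had 1 ESC read and stood at 7.30, 7.03, 7.46, 1.26 and 13.5 in embryos, a call lost without ESC control 1 or 2 (adjusted p = 0.0835 and 0.156).

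Genes at the top of both sources were few. Of the 18 genes with a mean rank above 99 in each, the 8 with the smallest differences were Eif4g2, mt-Co1, Prdx1, Trip12, Rplp0, Ubb, Eif5a and mt-Nd5, a mixture of translation, ubiquitin, redox and mitochondrial genes. Their differences ran from -0.0859 to 0.0870 points. The polyubiquitin gene Ubb stood at 2259 and 2219.8 RPM in ESCs and 1626, 1809, 1704, 1361 and 1639 in embryos, and the translation factor Eif5a at 1608 and 1594 and 1513, 1508, 2002, 1703 and 1543. Neither was called. Small differences such as these, and those of Dppa5a, Hdac1 and H1f0, changed sign under some of the other settings. Of the 100 highest genes by mean rank in each source, 9 were shared. Taken in each library by itself, the 100 highest genes held 23.8% and 23.7% of the reads in ESCs and 25.6% to 28.5% in embryos (exact permutation p = 0.0476, two-sided, adjusted 0.0794).

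The sources also differed in the kinds of genes that were read. Protein-coding genes took 96.0% of the reads in both ESC controls and 80.6% to 87.0% in the embryo controls. Long intergenic noncoding RNA (lincRNA) genes took 0.372% and 0.366% in ESCs and 4.35%, 4.50%, 5.57%, 8.05% and 7.88% in embryo controls 1 to 5. Antisense genes took 0.0832% and 0.0833% in ESCs and 1.15% to 1.38% in embryos. For each of these kinds every embryo library lay on 1 side of both ESC libraries, while pseudogenes overlapped, at 3.11% in both ESCs and 2.92% to 4.92% in embryos. Nuclear ribosomal RNA genes took 0.0539% and 0.0461% in ESCs and 1.29% to 3.69% in embryos. The lincRNA with the most embryo reads, AY036118, stood at 10737 to 31801 RPM in embryos and had no ESC read. It lies at chr17:39847113-39848035, where its exons overlap those of Gm42418 and the ribosomal RNA gene CT010467.1. Without it, lincRNA genes took 3.20% to 5.57% in embryos.

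**Figure D5:**
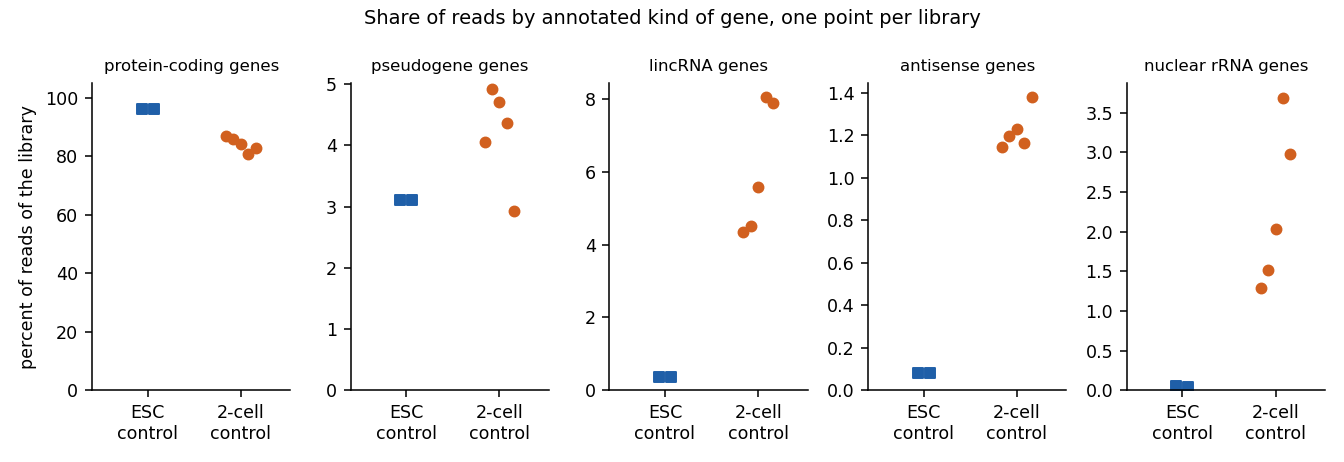
Percent of the reads of each library (vertical axes, each panel on its own scale from 0) on 5 annotated kinds of genes, with 1 point per library. The embryo libraries lie below the ESC libraries for protein-coding genes and above them for lincRNA, antisense and nuclear rRNA genes, and pseudogenes overlap.

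By number of genes, 41.9% of 712 tested antisense genes and 37.1% of 1146 pseudogenes had a large difference toward embryos, beside 13.1% of 14428 protein-coding genes. Toward ESCs the shares were 0.843%, 7.42% and 21.7%. A gene that passed the filter on embryo reads alone was low in at least 1 ESC library by selection. At the embryo depth, few reads reach 1 RPM. How far the filter shapes the shares in this paragraph was not tested. Strand handling in the counting is not given in the sources used here, so reads of an antisense gene and of its partner cannot be told apart. The genes with large differences toward embryos had a median exonic length of 2224 bases and 40.7% of them carried a provisional Gm or Riken name. Those toward ESCs had 4469 bases and 7.05%, beside 3627 bases and 19.3% over all tested genes. Exons overlapped another annotated gene in 42.5% of the genes toward embryos, 31.2% of those toward ESCs and 37.3% of all.

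Genes with large differences toward embryos stood in runs along the chromosomes (GENCODE vM21, mm10 coordinates). Counting consecutive tested genes, 23 runs of 6 or more toward embryos held 242 genes, with a longest run of 25. Toward ESCs, 11 such runs held 72 genes, with a longest of 8. Genes that did not pass the filter were skipped, so a run can span untested genes. A gene could also pass on embryo reads alone. How far the filter shapes the run counts was not tested, so nothing is read from their difference between the sources. The longest embryo run, at chr3:93628640-94332540, held the Tdpoz genes, which encode BTB and TRAF domain proteins. Runs of 18 genes lay on chromosome 12 around Oog1 and on chromosome 1 around Sp110 and Sp140, and runs of 17 on chromosome 9 in the oocyte-expressed Fbxw genes and on chromosome 11 in pseudogenes such as Gm12627, at 1115, 2015, 2249, 2086 and 351 RPM in embryos and 0 in ESCs. A run of 14 on chromosome 13 held Tcstv1 and Tcstv3, and the run of 11 on chromosome 4 held the Oog and Pramef genes shown above. These clusters are tandem copies, so their neighbouring values can share reads. On chromosome 11 the median difference was 7.81 points, and 23.3% of 1389 genes had a large difference toward ESCs and 12.5% toward embryos.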

How the data were processed

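RNA-seq libraries of 2 ESC controls and 5 embryo controls were compared. The labels describe genomic DNA and a transposase-based DNA library kit while the titles name RNA-Seq; the files hold values per gene. Per the submitters' processing notes, Trimmomatic, HISAT2, featureCounts and mm10 were used; for versions, strand and reads matching several genes, the handling is not given in the sources used here. Deposited values are a signal per gene, and the steps of the authors' values show counts divided by 1 factor per library, separately for each table. Whole reads were recovered from their steps, with 100% of values within 0.01 of a whole number. In all, 51627 genes stood in the ESC values and 53564 in the embryo values, and 47328 symbols on 1 row in each were matched, holding 99.1% of ESC reads and 96.06% to 96.45% of embryo reads.

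Percentile ranks over 17705 genes were tested with limma 3.58.1 (trend; R 4.3.3) and Benjamini-Hochberg adjustment, and single sums and shares by exact permutation over 21 assignments, two-sided. edgeR 4.0.16 and DESeq2 1.42.0 on recovered reads were alternatives, as were other filters, scales, thinning and leaving out each library. Leaving out embryo control 5 from the list counts was chosen after seeing the data. The share of ribosomal protein genes and the genes read after thinning were added to the library measures. Scripts were tested on simulated data. Replicates of a group differed by more than sampling noise (chi-square per degree of freedom 2.70 for the ESC pair and 7.24 to 21.9 for embryo pairs). The members and gene lists were chosen with earlier results of these data known. Named genes are the 12 protein-coding genes with the largest difference each way (Gm and Riken models left out), up to 4 called members of each list each way, a set of markers, the 8 most similar genes above rank 99 in both sources, and the 8 pairs that moved most; the noncoding genes named by level were chosen after their values were seen. The groups share no replicate number in the labels, so samples were not paired.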

Additional observations from a re-analysis of the deposited data

Results flagged for a closer look

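Among the 5 embryo libraries, a value was marked where 1 library lay far from the rest relative to the whole range. For 5 values from a normal distribution, chance marks about 1 in 20 groups, so some of these are expected by chance. That rate does not hold for Fabp3, Stmn2, Anp32a, Slc38a10, Phf19 and Col4a1. Their other embryo libraries had no read, so few reads in 1 library suffice for a mark. Embryo control 5 held a read on 16869 genes after thinning, the others on 14930 to 15286. Its median rank was 65.6 for the Zscan4 cluster and 82.1 for ribosomal protein genes, below the others, and embryo control 1 had a median rank of 76.3 for histone genes, below the others.

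Embryo control 1 ranked above the other embryo libraries for Stmn2 (31.2). Embryo control 1 ranked below the other embryo libraries for Zfp42 (40.9). Embryo control 2 ranked above the other embryo libraries for Anp32a (32.7) and Slc38a10 (20.7). Embryo control 3 ranked above the other embryo libraries for Phf19 (24.8). Embryo control 4 ranked above the other embryo libraries for Fabp3 (34.1). Embryo control 4 ranked below the other embryo libraries for Nlrp9c (98.3) and Prm2 (23.0). Embryo control 5 ranked above the other embryo libraries for Col4a1 (23.8), Npm2 (97.5) and Zbed3 (99.97). Embryo control 5 ranked below the other embryo libraries for Dppa4 (82.0), Fbxo15 (93.8), Fau (90.2), Nop16 (89.5), Cdc25c (84.8), Gabarapl2 (89.0), Dppa3 (99.83), Obox6 (98.1), Npm1 (98.2), Eif4e (99.5) and Elob (80.7).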

How the results depend on the processing

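With all 7 libraries and no minimum difference, the number of genes called ran from 8091 with protein-coding genes only to 13586 with array weights, beside 9832. It fell to 5777 and 5750 without ESC control 1 or 2 and to 6443 with a minimum of 25 points; with 1 library left out it ran from 5750 to 10342 in all, from 2886 to 5284 toward ESCs and from 2864 to 5058 toward embryos. Of 226 called named genes, 175 kept the call with any library left out. With 1 library left out the exact tests cannot reach the threshold; the differences were then -56.5 to -52.6 points for the Zscan4 sum, -3.69 to -2.97 percentage points for the 100 highest genes, 5.56 to 5.86 for ribosomal protein genes and -1740.5 to -1255.75 for genes read after thinning. Thinned to 670197 reads, 1 RPM is less than 1 read, so genes at 1 RPM or more became genes read after thinning. The difference of this single measure was -1613 (exact permutation p = 0.0476, two-sided, and 0.0794 after adjustment). In edgeR the median log2 fold change of all genes was 0.27, to which its folds are relative.

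Small differences that were not called changed sign; the cause was not tested. Dppa5a gave -0.0641 with protein-coding genes only, -0.0594 as normal scores, -0.151 with array weights and -0.311 to 0.180 with 1 library left out. Hdac1 gave 0.859 per exonic length. Eif4g2 gave -0.0568 with protein-coding genes only, -0.0176 as normal scores and -0.128 to 0.0995 with 1 library left out. Prdx1 gave 0.109 without mitochondrial and ribosomal protein genes, 0.00791 thinned, 0.437 per exonic length, 0.119 and 0.118 on the log2 scales with 1 and 5 added, 0.511 in edgeR, 0.350 in DESeq2 and -0.155 to 0.00424 with 1 library left out. Trip12 gave -0.0187 with protein-coding genes only and -0.0508 to 0.127 with 1 library left out. Eif5a gave 0.117 per exonic length, 0.404 in edgeR and 0.246 in DESeq2. H1f0 gave -1.12 to 4.96 with 1 library left out. No paired analysis was possible because the ESC and embryo controls share no replicate number in the labels. The depth of the embryo libraries limits what can be said of genes with few reads.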
